A study of Mus musculus with 9 samples.

Results

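Complement is a cascade of blood and tissue proteins that tags microbes, immune complexes and dying cells, and 8 of its genes were followed here through adipose tissue of male C57BL/6J mice. The genes were chosen by name, with earlier results of these data known. C1qa, C1qb and C1qc encode the chains of C1q, the recognition molecule of the classical pathway, and C3, C4b, C1s1, C1ra and Serping1 encode components that connective tissue cells are known to make. All 8 were among the 3958 genes of the count table. The first set is called the C1q chains below, and the second the stromal complement genes.

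In the classical pathway C1q binds antibody or a damaged surface and switches on the proteases C1r and C1s. C1s then cuts C4, the cut C4 takes part in the enzyme that splits C3, and C1 inhibitor, the product of Serping1, blocks C1r and C1s. Macrophages are the known main source of C1q in most tissues, whereas fibroblasts and fat precursor cells are known to secrete C1r, C1s, C3, C4 and C1 inhibitor. Fat cells are known as the source of complement factor D (adipsin), which starts the alternative pathway by cutting factor B.

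The design text names an ND group, an HFD (high-fat diet) group and an HFD group with EA, which is electroacupuncture, in which current is passed through acupuncture needles. All libraries are labelled day 21. EA is the labelled treatment of 3 libraries, titled APX and called EA 5, EA 7 and EA 8 here. Titles divide the other 6 into CPX (numbers 4, 6 and 8) and MPX (numbers 2, 5 and 7), without saying which prefix is ND and which HFD, so differences are not assigned to a diet. The diet of the EA libraries is likewise known only from the design text. The fat depot, the ages of the mice and whether each library is a separate mouse are not stated, so the spread that p-values measure, that between these libraries, may be technical. The extraction text speaks of retinas, but 0 of 18 retina genes were among the listed genes and Adipoq, the fat cell hormone adiponectin, was present in every library at 373 to 5399 CPM, the usual unit that relates a gene's counts to its library's total.

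Listed counts per library ran from 12115183 to 14208853, sums over the most abundant genes only and not sequencing depths. CPM is relative to these sums after TMM scaling between libraries. The fewest counts behind any member's value were 872 (C1ra in MPX 5) and the most were 99174 (C3 in EA 8), so counting error was small beside the spread between libraries. The 3 CPX libraries stood far apart: the adipocyte list (15 genes, mean log2 level against the mean over the 9 libraries) lay at 0.84 in CPX 4 and at -2.47 in CPX 6, and the B cell list (8 genes) at -2.86 and at 4.48. Values without those libraries, or without EA 8, follow beside the comparisons they moved most.

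The C1q chains are encoded side by side on mouse chromosome 4 (build mm10), all on the minus strand: C1qb at chr4:136880129-136886187, C1qc at chr4:136889804-136893065 and C1qa at chr4:136895917-136898803. The cluster spans 18675 bases, with 3616 bases between C1qb and C1qc and 2851 between C1qc and C1qa. C1ra (chr6:124512405-124523443, plus strand) and C1s1 (chr6:124530345-124542359, minus strand) lie 6901 bases apart with their ends facing. C3 (chr17:57203970-57228136) and C4b (chr17:34728380-34743882) are on the minus strand of chromosome 17, and Serping1 (chr2:84765387-84775444) on the minus strand of chromosome 2. All 8 are annotated as protein coding and have the same coordinates in GENCODE M21. C1ra and C1s1 have close copies, C1rb and C1s2, further along chromosome 6, and C4b has a close copy, C4a, so reads could have been split between copies. An antisense gene, Gm16567, overlaps C1s1, and without a stated strand setting its reads cannot be told apart from those of C1s1.

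Since the C1q chains moved together (below), the sequence before their starts is shown, with C3, which varied most, beside them. RefSeq windows on GRCm38.p6, the build also called mm10, from 250 bases before to 50 bases after the start were matched for 5 of the 8 members (C1qb, C1qc, C1ra, C1s1 and C3). Each was searched on both strands for GAGGAA, a core bound by PU.1, the macrophage factor, for TTCNNNGAA, the site form of STAT factors, for the interferon-stimulated response element, and for CCAAT and TATAAA. Those printed for C1qb and C1qc lie before the annotated transcript and those for C3 run 25 bases into it, and capitals mark motif matches. C1qb is chr4:136886201-136886450, C1qc is chr4:136893066-136893164 and C3 is chr17:57228112-57228286, all read 5′ to 3′ on the minus strand.
C1qb: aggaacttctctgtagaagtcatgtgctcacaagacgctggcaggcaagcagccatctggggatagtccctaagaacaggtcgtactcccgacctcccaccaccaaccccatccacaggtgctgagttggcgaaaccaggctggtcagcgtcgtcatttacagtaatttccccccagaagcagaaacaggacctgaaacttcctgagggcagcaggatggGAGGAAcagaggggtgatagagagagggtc
C1qc: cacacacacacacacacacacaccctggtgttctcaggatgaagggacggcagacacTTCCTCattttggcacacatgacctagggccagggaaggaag
C3: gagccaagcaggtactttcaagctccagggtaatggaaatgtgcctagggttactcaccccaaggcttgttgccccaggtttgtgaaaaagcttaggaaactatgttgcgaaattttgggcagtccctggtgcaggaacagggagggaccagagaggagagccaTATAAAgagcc

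Bases are counted from the RefSeq start, and that of C1qc lies inside the annotated transcript, which begins after base -152. Both C1q windows held 1 GAGGAA match. It lay in C1qb from base -30 to -25 on the gene's strand, and in C1qc from base -193 to -188 on the opposite strand. Of 32851 RefSeq windows 28.3% hold that motif, so a match is common. C1ra, the protease gene, had GAGGAA and TTCNNNGAA matches after its annotated start; TTCNNNGAA occurs in 8.3% of windows. The C3 window had TATAAA (13.6% of windows) from base 15 to 20 after its annotated start, and neither C1s1 window had any of the motifs searched. These matches describe letters and not bound sites.

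No group stood apart from both others for any C1q chain. C1qa was at 185.5, 191 and 236.2 CPM in CPX 4, 6 and 8, at 421.6, 123.7 and 210.7 CPM in MPX 2, 5 and 7, and at 313.6, 244.9 and 603.1 CPM in EA 5, 7 and 8. EA 8 was highest and MPX 5 lowest, 4.87-fold apart, and the MPX values enclosed all CPX values. C1qb was at 176.6, 241.3 and 338.3 CPM in CPX, 458.7, 135.8 and 212.1 CPM in MPX, and 308.4, 262.1 and 745 CPM in EA. EA 8 and MPX 5 were again its extremes, 5.49-fold apart. C1qc was at 137.4, 211.6 and 242.3 CPM in CPX, 370.3, 114.6 and 177.1 CPM in MPX, and 267, 216.3 and 494.1 CPM in EA. MPX 2 and EA 8 were again the high libraries of their groups, and MPX 5 the low one.

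**Figure D1:**
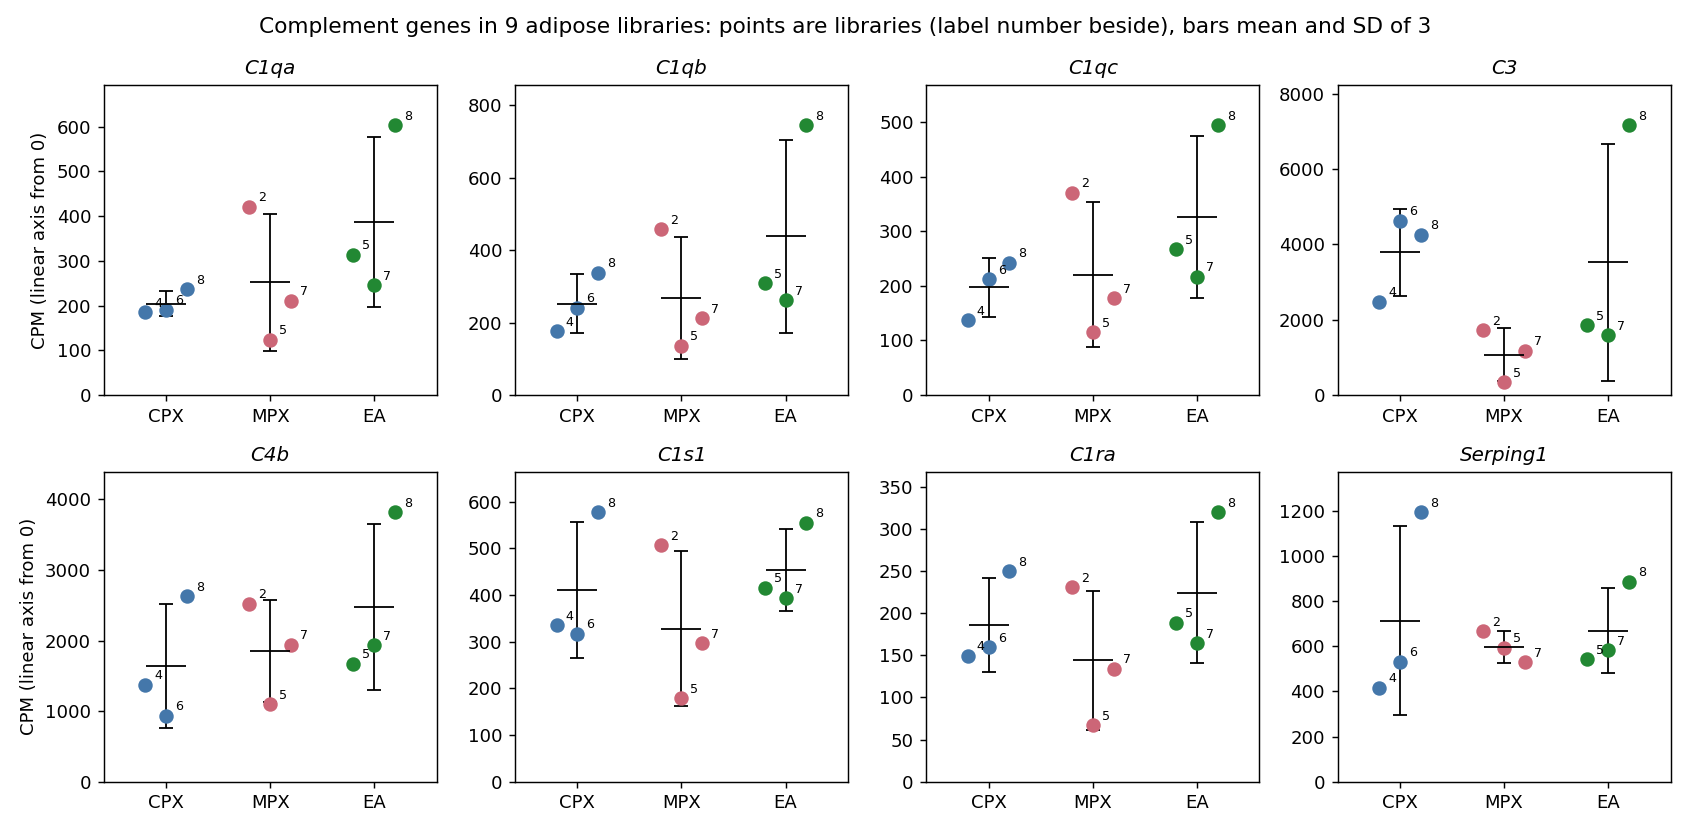
Level of each complement gene in CPM (linear axis from 0) in every library, by group, with the label number beside each point and bars for the mean and SD of 3 libraries. EA 8 is the highest EA library in all 8 panels and MPX 2 the highest MPX library in all 8, and CPX and MPX do not overlap for C3.

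The genes of the proteases that C1q carries also had their lowest values in MPX 5. C1s1 was at 335.1, 317.1 and 577.8 CPM in CPX 4, 6 and 8, at 506.7, 178.8 and 297.2 CPM in MPX 2, 5 and 7, and at 415.6, 392.7 and 555.3 CPM in EA 5, 7 and 8. CPX 8 was highest and MPX 5 lowest, 3.23-fold apart, and all groups overlapped. C1ra was at 149.3, 159.3 and 250.1 CPM in CPX, 230.9, 67.3 and 134.2 CPM in MPX, and 188.6, 164.3 and 320 CPM in EA. Its extremes were EA 8 and MPX 5, 4.75-fold apart. Serping1, whose product inhibits both proteases, was the least variable member, at 417.6, 531.4 and 1196 CPM in CPX, 667.6, 593.8 and 528.6 CPM in MPX, and 542.1, 582.7 and 886.3 CPM in EA. Here CPX 8 stood far above the other CPX libraries, and MPX 5, the low library of most members, was between MPX 2 and MPX 7.

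C3 and C4b, the substrates further down the cascade, were the most abundant members by count. C4b was at 1374, 932 and 2624 CPM in CPX 4, 6 and 8, at 2524, 1094 and 1941 CPM in MPX 2, 5 and 7, and at 1672, 1935 and 3820 CPM in EA 5, 7 and 8. Its 3 groups overlapped, with the lowest value in CPX 6. C3 was at 2474, 4621 and 4251 CPM in CPX, 1712, 330.4 and 1168 CPM in MPX, and 1843, 1579 and 7155 CPM in EA. It had the widest span of the 8, 21.7-fold between EA 8 and MPX 5. All CPX values lay above all MPX values, while EA reached from below the highest MPX value to above every CPX value.

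Over the 9 libraries EA 8 was the highest for 6 of the 8 members and CPX 8 for 2, while MPX 5 was the lowest for 6, and CPX 4 and CPX 6 for 1 each. Among all 3958 genes EA 8 was the highest library for 6.47% and MPX 5 the lowest for 12.2%. Within groups, EA 8 was highest for all 8 members (42.1% of all genes), MPX 2 for all 8 (38.5%) and CPX 8 for 7 (22.4%, the exception being C3). The members share these libraries, so the counts describe 3 libraries and not 8 observations.

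Per length, which allows genes to be compared, C3 averaged 543 CPM per kilobase of gene model over the 9 libraries and C4b 349.5. C1qb followed at 293.9, Serping1 at 284.1 and C1qa at 270.3, while C1qc was at 128.4, C1s1 at 127 and C1ra at 62. The C1q protein takes up its chains in equal number. C1qc was below C1qa per length in every library (59.4 to 255.9 against 119 to 579.9 CPM per kilobase). The gene model of C1qc is the longest of the chains (1931 bases against 1040 for C1qa and 1088 for C1qb), and its level per length depends on that length. C3 was below C1qa per length in MPX 5 (64.2 against 119 CPM per kilobase) and in MPX 2 (332.9 against 405.3), and above it in the other 7 libraries.

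Within a library the ratios between C1q chains varied little. On the log2(CPM + 1) scale, C1qb minus C1qc ranged from 0.19 in CPX 6 to 0.59 in EA 8, with an SD of 0.13 over the 9 libraries. The single genes had SDs of 0.73 (C1qb), 0.68 (C1qa) and 0.65 (C1qc) on that scale, against a median of 0.44 over all genes. C1qc minus C1qa ranged from -0.43 in CPX 4 to 0.15 in CPX 6 (SD 0.17), so both extremes of that ratio lay in CPX. C1s1 minus C1ra was as steady, from 0.79 in EA 8 to 1.40 in MPX 5 (SD 0.17). These 2 genes, like the C1q chains, are neighbours on a chromosome, and whether that bears on the ratios was not tested.

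A profile here is a gene's log2(CPM + 1) value in each library minus its mean over the 9, and 2 profiles are compared by the root mean square of their differences. Among the 28 pairs of members the closest were C1qb and C1qc (0.13), C1s1 and C1ra (0.16), C1qa and C1qc (0.16) and C1qa and C1qb (0.18). Next came C1ra, counted as stromal, with each of the C1q chains (0.28 for C1qb, 0.29 for C1qc and 0.32 for C1qa), ahead of C1ra with C4b (0.40) or Serping1 (0.51). The 7 most distant pairs all held C3, from 0.78 with C1ra to 1.13 with Serping1. This distance grows with the size of swings, and C3 had the largest SD (1.30, against 0.45 to 0.73 for the others). Pearson correlation ignores that size: C3 was at 0.86 with C1ra and 0.77 with C1s1, but at 0.44 with C4b and 0.40 with Serping1. C1ra with Serping1 was at 0.56. By distance the pairs did not fall into a C1q set and a stromal set, since C1ra lay nearer to each C1q chain than to C4b or Serping1. C1s1 was about as near to C4b (0.37) as to the C1q chains (0.34 for C1qc, 0.36 for C1qb and 0.37 for C1qa).

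**Figure D2:**
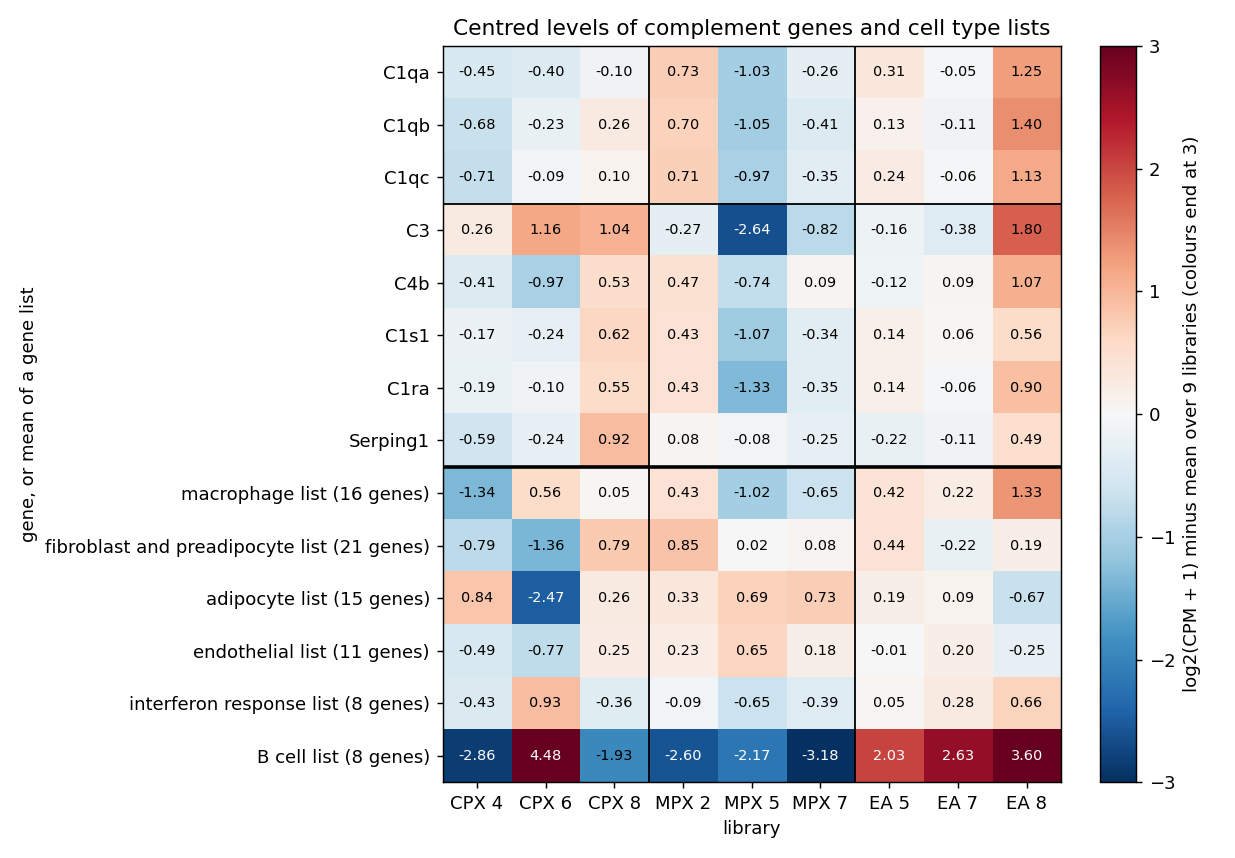
Level of each complement gene (upper rows), and mean level of each cell type or response list (lower rows), as log2(CPM + 1) minus the mean over the 9 libraries, for each library (columns, by group). EA 8 is red for all 8 genes (0.49 to 1.80), MPX 5 is blue for all 8 (-2.64 to -0.085), and C3 in CPX 6 (1.16) has the opposite colour to C4b in that library (-0.97).

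The mean C1q profile lay at 0.34 from the mean of the 5 stromal complement genes and at 0.34 from that of C1s1, C1ra and Serping1, nearer than to any cell type list. Of the lists it was nearest to the macrophage list (16 of 24 genes listed, distance 0.40), then to the list of interferon response genes (8 of 27 listed, 0.57) and to the list of fibroblast and preadipocyte genes (21 of 23 listed, 0.69). It was further from the endothelial (0.82), adipocyte (1.30) and B cell (2.75) lists. Of single macrophage genes, Mrc1, the mannose receptor, was nearest (0.31), with Adgre1 (F4/80) and the adaptor gene Tyrobp at 0.33. Fcer1g (0.40), Csf1r (0.43) and Cbr2 (0.45) followed. Lyz2 (0.64), Cd68 (0.66), Ctss (0.85), Lyve1 (0.86), Mpeg1 (0.93), Cd74 (0.95), Cd163 (1.01) and Laptm5 (1.03) lay further away. Timd4, a receptor of resident macrophages, was far off (2.13), as was Gpnmb, a marker of lipid-laden macrophages (1.21). The mean profile of C1s1, C1ra and Serping1 lay at 0.55 from the interferon response list, 0.56 from the macrophage list and 0.59 from the fibroblast list, with no clear order among them. C4b was nearest to the fibroblast list (0.50). C3, with its wider swings, was not close to any list by this measure, its smallest distance being 0.83 (mast cell list, 3 genes). In bulk tissue fewer cells of a type and less RNA per cell cannot be told apart.

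The macrophage list did not follow C1q in 2 CPX libraries. C1q minus the macrophage list mean, on the log2 scale, was 1.40 in CPX 4 and -0.12 in CPX 6, but 0.38 to 0.98 in the other 7 libraries. It was lower in all EA libraries (0.38 to 0.61) than in any MPX library (0.68 to 0.98), with a mean difference of -0.38. Against Cd68, Adgre1, Csf1r, Mpeg1 and Ctss alone, EA (0.50 to 0.70) and MPX (0.48 to 0.85) overlapped, with a mean difference of -0.058. In CPX 6 the macrophage list stood at 0.56 and the C1q mean at -0.24, relative to their means. That library held 372.2 CPM of Timd4 against 1.9 to 106.4 CPM elsewhere, and 6911 CPM of Cd74 and 1175 CPM of Laptm5, listed genes that B cells also express. In CPX 4 Cd68, a lysosomal macrophage protein, was at 17.7 CPM and Adgre1 at 34.7 CPM, the lowest of all libraries for both, while C1qa there was near that of CPX 6. The part of other cells in these ratios was not tested.

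By the measure above, the genes most like the C1q mean profile among 3899 compared were Fcgr3, an antibody receptor (0.20), Clec10a, a lectin receptor (0.22), C1ra (0.28), Mmp14, a membrane protease (0.30), and Cmtm3 (0.31). The median distance of all genes was 0.76. Fcgr3 was at 208.6 CPM in EA 8, its highest value, and at 39.1 CPM in MPX 5, its lowest, as for C1q. For the mean of C1s1, C1ra and Serping1 the nearest were Ifitm3, an interferon-induced membrane protein (0.12), Gas6, a ligand that bridges dying cells to phagocytes (0.19), Scpep1 (0.21), Cbr2 and Atp11a (0.24 each), with a median of 0.62. Ifitm3 stood at 321.1 CPM in CPX 8 and 305.7 CPM in EA 8 against 119.7 to 209.3 CPM in the other 7. C4b was most like Tmem106a (0.23), Ifi207 (0.28), Fcgr3 (0.30), Ccl9 (0.31) and Stard8 (0.31). C3, with its wider swings, had no near gene by this measure. The closest were the chemokine gene Ccl8 (0.61), ceruloplasmin (Cp, 0.62), Ctsc (0.64), Fcgr2b (0.65) and Tmem176b (0.69). The likeness rests on 9 libraries, in which EA 8 and MPX 5 carry much of the span.

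Electroacupuncture was compared with MPX first. All 8 members had higher mean CPM in EA, by 1.12-fold (Serping1) to 3.29-fold (C3) in the fit, but 0 of 8 passed the test and 0 of 8 had groups that did not overlap. The quasi-likelihood test of edgeR, fitted on every library, gave 0% of 3958 genes past an adjusted p of 0.05. At an unadjusted p under 0.05 there were 5.1% of all genes (2.1% higher and 3.01% lower in EA) and 0 of 8 members. Ranges did not overlap for 21.5% of all genes with EA higher and for 19% with EA lower. DESeq2 called 1.24% of genes and limma voom 0, with 0 members in either. The median log2 difference was 0.59 over the members and 0.012 over all genes, and 51.4% of all genes had positive differences. The EA mean of C3 was 3525 ± 3146 CPM and the MPX mean 1070 ± 696 CPM (SD, n = 3 libraries per group). Its log2 difference was 1.72 (SE 0.77, 95% interval -0.054 to 3.49, edgeR adjusted p = 0.775). C1qb averaged 438.5 ± 266.5 CPM against 268.9 ± 168.8 CPM, a difference of 0.71 with an interval of -0.57 to 1.98. For C1qa and C1qc the differences were 0.62 and 0.56, for C1s1 and C1ra 0.47 and 0.64, for C4b 0.42, and for Serping1 0.17.

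The size of these differences rested on single libraries. Without EA 8 the difference of C3 was 0.68, those of C1qa, C1qb and C1qc were 0.15, 0.085 and 0.13, and those of C1s1 and C1ra 0.30 and 0.29, and C4b (-0.039) and Serping1 (-0.085) turned negative, leaving 6 of 8 positive with a median of 0.14. Without MPX 2 the median was 1.12, and without MPX 5 it was 0.25, all 8 being positive in both. With only EA and MPX in the fit, 2.12% of genes passed (84 genes), and with CPX 4 and CPX 6 left out 2.02%, and 0 of the 8 members were among either. Beside the members, 15 of 16 macrophage genes had positive differences (median 0.73) and 15 of 21 fibroblast and preadipocyte genes had negative ones (median -0.23). The adipocyte list had 14 of 15 negative (median -0.51) and the endothelial list 10 of 11 (median -0.28), while all 8 interferon response genes (median 0.71) and all 3 mast cell genes (median 2.16) were positive. All 8 B cell genes had positive differences (median 6.58): their summed level was 655.9 to 1942 CPM in EA and 27.7 to 50.3 CPM in MPX. The part of these cells in the members' differences was not tested.

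**Figure D3:**
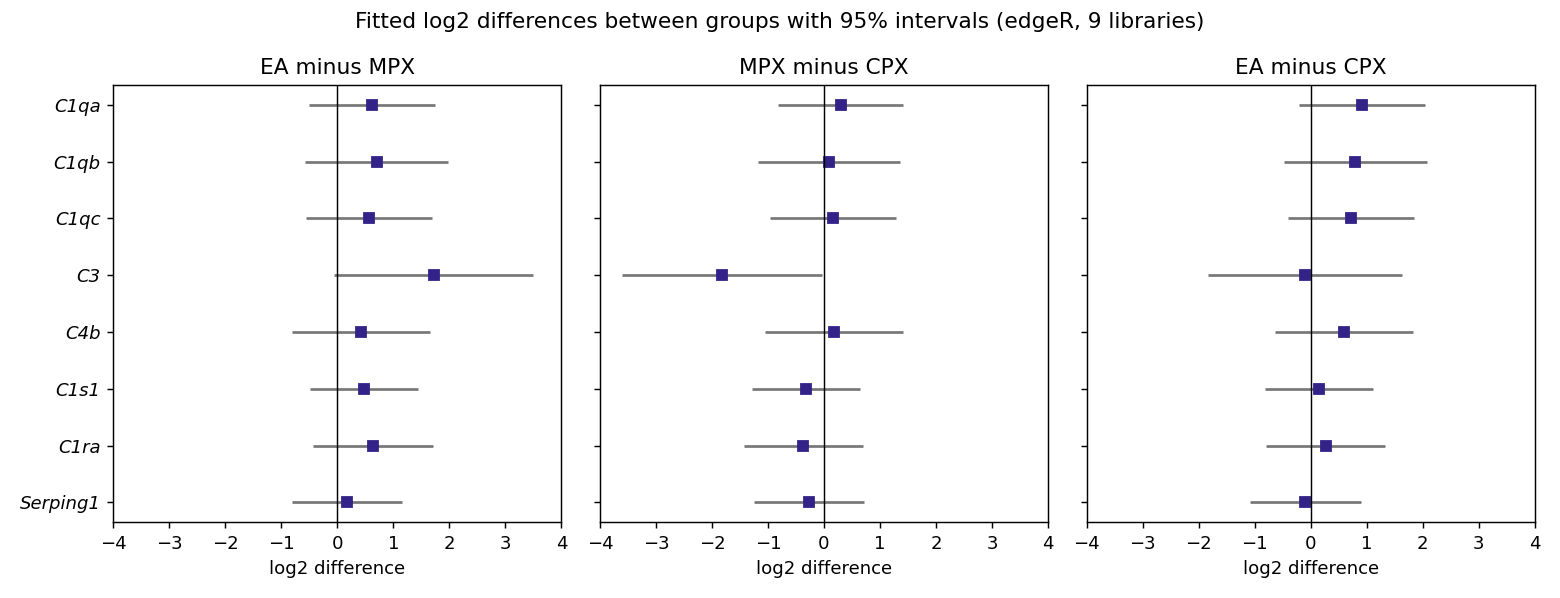
Fitted log2 difference of each complement gene in the 3 comparisons (squares) with its 95% interval (lines), from edgeR on all 9 libraries. The interval of C3 in MPX minus CPX (-3.60 to -0.042) does not reach 0, all other 23 intervals do, and no difference passed after adjustment over all genes.

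MPX and CPX are the groups without EA. C3 was lower in every MPX library than in any CPX library, at 1070 ± 696 CPM against 3782 ± 1148 CPM (SD, n = 3 in each group). The log2 difference was -1.82 (SE 0.78, 95% interval -3.60 to -0.042, unadjusted p = 0.0459), and it did not pass the edgeR test after adjustment (adjusted p = 0.374). Ranges did not overlap, with MPX lower, for 7.71% of all genes and for 1 of the 8 members. At an unadjusted p under 0.05 there were 13.2% of all genes and again 1 of 8 members. No genes passed after adjustment (0%) in edgeR, and DESeq2 called 5.1% of those it tested, with C3 at a DESeq2 adjusted p of 0.11. limma voom called 0. Without CPX 8 edgeR called 4.24% of genes, again with 0 members. C3 kept its direction whichever library was left out, between -2.30 without MPX 2 and -1.37 without MPX 5. With CPX 4 and CPX 6 both left out it was -1.97, with CPX 8 alone in its group and assumed to vary like the others.

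The other members overlapped between MPX and CPX. C1qa (0.30), C1qb (0.093), C1qc (0.16) and C4b (0.17) had small positive differences in MPX minus CPX, and C1s1 (-0.32), C1ra (-0.37) and Serping1 (-0.26) negative ones. Their intervals were wide: that of C1qb, from -1.18 to 1.36, holds both a 2-fold fall and a 2-fold rise. The median over the members was -0.084 and over all genes -0.11, and 40.7% of all genes had positive differences. The split of 4 positive and 4 negative moved with the libraries, from 0 of 8 positive without MPX 2 to 6 of 8 without CPX 8. Beside the members, 13 of 16 macrophage genes and all 8 interferon response genes had negative differences (medians -0.47 and -0.51), as did all 8 B cell genes (median -6.54). Positive differences were found for 17 of 21 fibroblast, 12 of 15 adipocyte and 11 of 11 endothelial genes (medians 0.49, 0.67 and 0.57). The part of these cells in the members' values was not tested. EA minus MPX and MPX minus CPX share the MPX libraries, so a low C3 value in MPX enters both.

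In EA minus CPX the C1q chains had the highest fitted differences of the 8 with all libraries, but without CPX 8 that of C4b (1.10) was above those of C1qb (1.07) and C1qa (1.04). C1qa averaged 387.2 ± 190.1 CPM in EA and 204.3 ± 27.8 CPM in CPX (SD, n = 3 in each group), and every EA library lay above every CPX library. Its log2 difference was 0.92 (SE 0.49, 95% interval -0.20 to 2.05, edgeR adjusted p = 0.997). The ranges of 2.1% of all genes did not overlap in that direction, as did those of 1 of the 8 members. The differences of C1qb and C1qc were 0.80 and 0.72, that of C4b was 0.59, and those of C1ra (0.27), C1s1 (0.15), Serping1 (-0.093) and C3 (-0.10) were smaller. Of the members 6 of 8 were positive, against 39% of all genes. No genes passed after adjustment (0%), and 2.96% of all genes but 0 of 8 members had an unadjusted p under 0.05. DESeq2 called 5 genes and limma voom 0, with 0 members. Without EA 8 the C1qa difference was 0.45, that of C1qb 0.18, that of C1qc 0.29 and that of C4b 0.13, and C4b was at 0.30 without CPX 6. Beside the members, 13 of 16 macrophage genes (median 0.38), 16 of 21 fibroblast genes (median 0.20) and 9 of 11 endothelial genes (median 0.30) had positive differences, and their part was not tested. Scaling by column sums alone moved the median of all genes from -0.093 to 0.10 in this comparison, and with it Serping1 (0.077) and C3 (0.061) turned positive.

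Ratios within a library do not depend on that scaling. The mean log2 level of the C1q chains minus that of the 5 stromal genes was -1.83, -1.60 and -2.08 in CPX 4, 6 and 8, -0.95, -1.28 and -1.45 in MPX 2, 5 and 7, and -1.17, -1.43 and -1.14 in EA 5, 7 and 8. CPX averaged -1.84 ± 0.24, MPX -1.23 ± 0.25 and EA -1.25 ± 0.16 (SD, n = 3 in each group). With C3 among the stromal genes, C1q was lower relative to them in every CPX library than in any MPX or EA library, by 0.61 and 0.59 on average, while MPX and EA overlapped, with EA minus MPX at -0.020. As the members were chosen with results of these data known, no test was made of this ratio. Without C3 all 3 groups overlapped: the ratio was -1.31, -0.89 and -1.61 in CPX, -0.68, -1.25 and -1.17 in MPX, and -0.80, -1.11 and -0.54 in EA. The differences were then 0.24 in MPX minus CPX, 0.45 in EA minus CPX and 0.22 in EA minus MPX. Against C1s1 and C1ra alone, C1q was lower in every CPX library than in any MPX library, but CPX and EA overlapped.

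**Figure D4:**
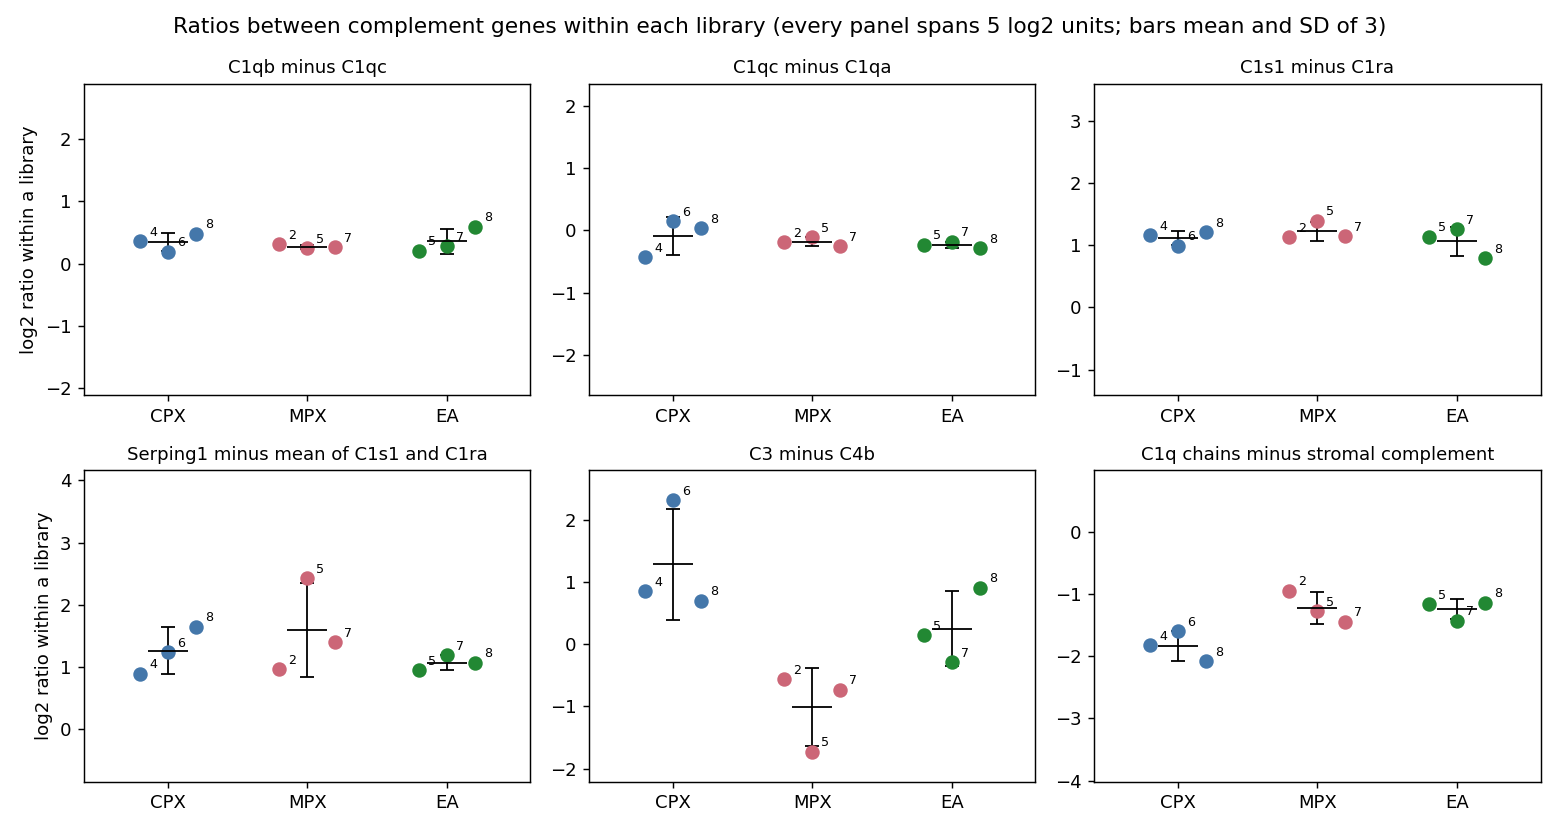
Log2 ratios between complement genes within each library (vertical axes of equal span), by group, with the label number beside each point and bars for the mean and SD of 3 libraries. The ratios of C1q chains to each other and of C1s1 to C1ra vary by at most 0.60, C3 to C4b spans 4.03, and CPX lies below the other groups for C1q minus stromal complement, a separation that is lost without C3.

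The ratio of C3 to C4b differed more between groups than any other ratio of members that was computed. It was 0.85, 2.31 and 0.70 in CPX 4, 6 and 8 on the log2 scale, -0.56, -1.72 and -0.73 in MPX 2, 5 and 7, and 0.14, -0.29 and 0.91 in EA 5, 7 and 8. C3 exceeded C4b in all 3 CPX libraries and in EA 5 and EA 8, and was below it in all 3 MPX libraries and in EA 7. MPX overlapped neither of the other groups, and EA overlapped CPX. Against the fibroblast list, the stromal complement mean was 1.21, 1.92 and 0.58 in CPX, 0.013, -0.55 and 0.22 in MPX, and 0.15, 0.77 and 1.41 in EA, all on the log2 scale, with MPX below every CPX library.

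The ratio of the inhibitor to its targets was compared in the same way. Serping1 minus the mean of C1s1 and C1ra was 0.90, 1.24 and 1.65 in CPX, 0.96, 2.42 and 1.40 in MPX, and 0.95, 1.19 and 1.07 in EA, with all groups overlapping. MPX 5 was highest, and there C1s1 and C1ra were at their lowest of the 9 libraries while Serping1 was not.

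Of 44 other genes of complement and its receptors, 17 were among the listed genes. In EA minus MPX 12 of the 17 had positive differences (median 0.58), in MPX minus CPX 4 (median -0.38) and in EA minus CPX 9 (median 0.030), and 0 passed the edgeR test in any of the 3. At an unadjusted p under 0.05 there were 3 of 17 in EA minus MPX, all higher in EA (2.1% of all genes were), 1 higher and 3 lower in MPX minus CPX (4.98% and 8.21%), and 0 in EA minus CPX. Cfd, adipsin, was the most abundant, at 33449, 2147 and 9091 CPM in CPX 4, 6 and 8, at 7452, 3135 and 3036 CPM in MPX 2, 5 and 7, and at 9922, 6764 and 11044 CPM in EA 5, 7 and 8. CPX held both its highest and its lowest value, and EA overlapped MPX. The log2 difference of Cfd was 1.03 in EA minus MPX (edgeR adjusted p = 0.775) and -1.71 in MPX minus CPX (edgeR adjusted p = 0.414). With 1 library left out, the former ranged from 0.78 (without MPX 7) to 1.55 (without MPX 2). The latter ranged from -2.25 (without MPX 2) to -0.28 (without CPX 4). Properdin (Cfp), which stabilises the C3-splitting enzyme of the alternative pathway, was at 198.3, 153.1 and 335.5 CPM in EA against 159.8, 59.1 and 82.4 CPM in MPX, a difference of 1.19 (edgeR adjusted p = 0.775). Cfp in EA overlapped MPX, and EA 8 was again its highest EA library.

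Cr2, Clu and Cd55 were highest in CPX 6 and EA 8, which also had the highest B cell list (4.48 and 3.60). These libraries were also highest for the list of lymph node stroma and follicular dendritic cell genes (2.58 and 2.43). Only 3 of the 10 genes of that list were in the count table, and 1 of the 3 had a negative difference in EA minus MPX. Their summed level was 529.3 to 1295 CPM in EA and 696.9 to 1341 CPM in MPX. Cr2 is itself in both lists, so its likeness to them is partly with itself, and the part of these cells in the values was not tested. Cr2, a receptor for C3 fragments that B cells carry, was at 75.9, 102.3 and 247 CPM in EA 5, 7 and 8, at 0.8, 1.1 and 0.6 CPM in MPX 2, 5 and 7, and at 0.2, 400.3 and 2.4 CPM in CPX 4, 6 and 8. Clusterin (Clu), which binds the membrane attack complex, was at 324.9, 360.1 and 758.4 CPM in EA, against 71, 43.6 and 60.2 CPM in MPX and 70.8, 1731 and 140.5 CPM in CPX. Cd55, which dissolves C3-splitting enzymes on cell surfaces, was at 133.8, 124.3 and 162.2 CPM in EA, against 61, 66.5 and 67.1 CPM in MPX and 66.9, 335.3 and 92.3 CPM in CPX. For these genes EA lay wholly above MPX, as it did for 21.5% of all genes. In CPX only CPX 6 was higher than the EA libraries for these genes. Their log2 differences in EA minus MPX were 7.40, 3.05 and 1.11, and none passed in the edgeR fit of group means over all 9 libraries (edgeR adjusted p = 0.775 for each). DESeq2 on the same libraries called Cr2 (DESeq2 adjusted p = 0.00945) and not Cd55 (DESeq2 adjusted p = 0.4), and gave Clu no adjusted p. It also called Cr2 in MPX minus CPX (DESeq2 adjusted p = 0.0057). With EA and MPX alone 2.12% of all genes passed, Cr2, Clu and Cd55 among them (edgeR adjusted p = 0.0105, 0.0229 and 0.0227). Without CPX 6, a fit added after the data were seen, it was 0.581%, again with Cr2, Clu and Cd55 among them (edgeR adjusted p = 0.0117, 0.0289 and 0.0472). With limma voom none of these genes passed (limma voom adjusted p = 0.787 for each). Nor did Cr2, Clu or Cd55 pass in edgeR without CPX 4, without CPX 8, or without any 1 of the EA or MPX libraries. In MPX minus CPX their differences of -7.32, -3.47 and -1.35 became -0.71, -0.86 and -0.30 without CPX 6.

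Cd93, a surface receptor of endothelial cells once proposed to bind C1q, was at 169.9, 253.2 and 173 CPM in MPX 2, 5 and 7, against 79.4, 56.3 and 165.3 CPM in CPX 4, 6 and 8. The groups did not overlap (8.46% of all genes were higher in MPX without overlap), with a log2 difference of 0.99 (edgeR adjusted p = 0.374). Without CPX 8 it was 1.58 and passed (edgeR adjusted p = 0.049), in a fit that called 4.24% of all genes. In the other 17 of 18 alternatives it did not pass. Without CPX 6 it was 0.70 (edgeR adjusted p = 0.392), and with CPX 4 and CPX 6 both left out 0.29. DESeq2 (DESeq2 adjusted p = 0.118) and limma voom (limma voom adjusted p = 0.483) did not call Cd93 either. Itgb2, the shared chain of the complement receptors CR3 and CR4, was at 110.1, 106.4 and 255.5 CPM in EA, against 147.1, 61.7 and 66.4 CPM in MPX and 16.1, 367.7 and 71.4 CPM in CPX. Its difference in EA minus MPX was 0.78, but 0.24 without EA 8 and 1.26 without MPX 2. In MPX minus CPX it was -0.73, but 1.07 without CPX 6. Cd81 is a partner of Cr2 in the B cell coreceptor that many other cells carry. It was at 314.8 to 398.1 CPM in EA against 421.7 to 466.1 CPM in MPX. EA lay below MPX (-0.28, edgeR adjusted p = 0.805), as it did without overlap for 19% of all genes. In CPX 4, 6 and 8 Cd81 was at 498.8, 200.8 and 376.5 CPM, so CPX held both its highest and its lowest value.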

How the data were processed

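Per the labels' protocols, which speak of retinas, Trizol and an Illumina TruSeq kit were used. HISAT2 2.0.5 and build mm10 are named in the submitters' processing notes. How reads were assigned to genes (program, annotation, strand) is not stated in the labels. The deposited table gives unnormalized counts, per the file headers and their whole-number values, of 3958 genes in falling order of their total (3653827 to 8471 counts). The text ends inside its last row, so genes of lower abundance were not analysed here. Columns were matched to libraries by title, and 11 gene names (10 turned into dates, 1 incomplete) were restored from gene IDs.

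The main test was the quasi-likelihood test of edgeR 4.0.16 (R 4.3.3): TMM scaling (factor 0.753 in CPX 4, 0.981 to 1.10 elsewhere), filterByExpr, which removed no gene, and robust quasi-likelihood with a mean per group over all 9 libraries. Benjamini-Hochberg adjustment ran over all 3958 genes within each of the 3 comparisons, threshold 0.05. The SE was derived from the log2 difference and its F statistic. Level ratios and profiles used log2(CPM + 1). With 3 against 3 libraries an exact permutation test cannot give a two-sided p below 0.1, and none was used. The replicates were separate libraries (chi-square per degree of freedom of at least 71.5). The scripts were tested on simulated data.

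The members and lists were chosen with earlier results of these data known. Named were the 8 members, of the other complement list the 6 genes with the smallest p plus Cfd, Cfb, Cfp, C3ar1, Clu, Cd81 and Itgb2 where listed (Cfb and C3ar1 were not), and the 5 nearest profiles. Another gene the rule names is not reported here. Alternatives were other scalings, no filter, DESeq2 1.42.0, limma voom (limma 3.58.1), a fit without robust estimation, fits of the compared groups alone, libraries left out, and the label number as a block. Leaving out libraries of the group outside a comparison was added after the data were seen.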

Additional observations from a re-analysis of the deposited data

How the results depend on the processing

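The low-count filter removed no gene, so dropping it tests nothing, and genes below the table's end limit what was seen. Over 24 differences of members (8 genes in 3 comparisons) and 448 alternative values, 0 passed the threshold (smallest adjusted p 0.11) and 416 kept their direction. The count of genes called, 0 in each comparison, became 84 in EA minus MPX with only those groups, 80 with CPX 4 and 6 left out, 49 with DESeq2 and 6 with the label number as a replicate block. DESeq2 called 201 in MPX minus CPX and 5 in EA minus CPX. Leaving out 1 library gave 0 to 23 in EA minus MPX (23 without CPX 6), 0 to 168 in MPX minus CPX (168 without CPX 8) and 0 to 12 in EA minus CPX (12 without CPX 6). limma voom called 0 in each.

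Some directions turned, among them those of Itgb2 in MPX minus CPX (-0.73) and C4b in EA minus CPX (0.59). In MPX minus CPX these were C1qb (-0.31), C1qc (-0.11), C4b (-0.48) and Itgb2 (0.38) with CPX 4 and 6 left out, and C1qb (-0.037) with limma voom. In EA minus CPX they were C4b (-0.095), C1s1 (-0.36) and C1ra (-0.17) with CPX 4 and 6 left out, C3 with upper quartile scaling (0.0018) or column sums (0.061), and Serping1 with column sums (0.077) or limma voom (0.049). The cause was not tested. With 1 library left out, EA minus MPX ranged from -0.039 to 0.67 for C4b and -0.085 to 0.30 for Serping1. MPX minus CPX ranged from -0.26 to 0.65 for C1qa, -0.50 to 0.43 for C1qb, -0.40 to 0.50 for C1qc, -0.11 to 0.71 for C4b, -0.75 to 0.034 for C1s1, -0.50 to 0.36 for Serping1 and -1.22 to 1.07 for Itgb2. EA minus CPX ranged from -1.14 to 0.25 for C3, -0.021 to 0.48 for C1s1, -0.078 to 0.54 for C1ra and -0.37 to 0.50 for Serping1. The C1q to stromal ratio in MPX minus CPX was 0.24 without C3, and 0.47 to 0.73 with 1 library left out.

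MPX and EA share label numbers 5 and 7, and CPX and EA share 8. Deviations from group means correlated across genes at 0.028 (number 5), 0.12 (number 7) and -0.51 (number 8). Libraries with unlike numbers ranged from -0.68 (CPX 6 and EA 5) to 0.71 (CPX 6 and EA 8). With so wide a range these values cannot decide whether the numbers pair libraries, and the labels do not say. With the number as a replicate block, C3 in EA minus CPX was 0.75 and C1s1 -0.057, and 0 members passed. Cr2 passed in EA minus MPX with the block (edgeR adjusted p = 0.0324).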
